A study of Mus musculus with 6 samples.

Results

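Neuronal transcripts were followed in microglia that had been selected magnetically through the surface receptor P2RY12. The set held 30 genes, taken from a written list of neuronal markers, out of 23462 genes with a probe on the array. Probes were assigned to a gene through their transcript accession, and each gene was represented by its brightest probe, that is, the probe with the highest mean signal over the arrays. The 30 genes fall into 5 roles: vesicle release at the presynapse (6 genes), growth cone and cytoskeleton (8), transmitter synthesis and loading (4), postsynaptic receptors and signalling (6), and surface, channel and pan-neuronal proteins (6).

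RNA came from male mice aged 10 weeks on a C57BL/6 background. Both groups carried PGC-1αf/f, a floxed transgenic PGC-1α allele linked to eGFP. The mPGC-1α mice also carried a tamoxifen-inducible Cre recombinase in the Cx3cr1 locus, which is active in microglia and in other Cx3cr1-expressing cells. The controls were littermates with PGC-1αf/f alone. Their arrays are labelled as without PGC-1α, which is read here as without its overexpression. The study gave tamoxifen before its experiments. Whether the control mice of these arrays received it is not stated in the sources used here. Each group had 3 one-colour Agilent arrays. The labels do not say that each array came from a separate mouse, so the p-values below measure the spread between arrays only.

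Microglia are resident macrophages of the brain and do not form synapses. Neurons are defined by transcripts for vesicle fusion, neurofilaments, transmitter enzymes and glutamate receptors, and these proteins serve neuronal shape, transmission and signalling. Whether the neuronal transcripts read here came from microglia or from other material in the sort was not tested. A bulk array cannot tell fewer cells of a type from less RNA per cell.

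Ppargc1a, the gene that encodes PGC-1α, gave log2 values of 0.19, -0.44 and -1.21 in the controls and 0.57, 0.28 and 0.08 in mPGC-1α, relative to each array's reference level. The groups overlapped, with a difference of 0.80 (SE 0.35, limma adjusted p = 0.306) and of 0.44 without PGC-1αf/f replicate 3. The microglial markers P2ry12 and Tmem119 were well above background on every array, as were all 14 microglial markers examined. The 75th percentile of the spot intensity, the reference level of each array, ran from 1012 to 2138, and 27025 to 30272 of 59305 spots were well above background. PGC-1αf/f replicate 3 stood apart: its mean correlation with the other arrays was 0.928, against 0.962 to 0.972 for the rest. The differences printed below for the brightest probes are therefore also given without it where it moved them most. Over all genes, 20 of 25257 probes (0.0792%) passed the threshold of an adjusted p of 0.05 in limma.

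Of the 30 neuronal genes, 23 were well above background on all 6 arrays. Each array held 23 to 25 of them. Grin1 was above background on 3 of 3 mPGC-1α arrays and on 0 of 3 PGC-1αf/f arrays. Gad1 was above background on 3 arrays and Stx1a on 1. Nefm, Slc17a7, Slc17a6 and Nrgn were above background on none. The readout depended on the probe: 14 genes had more than 1 probe, and in 8 of them (Snap25, Syn2, Map2, Camk2a, Camk2b, Dlg4, Kcnc1 and Rbfox3) one probe was well above background on all 6 arrays while another was on none. For Camk2b, Dlg4 and Rbfox3 both kinds of probe are assigned to the same transcript accession. The choice of the brightest probe therefore fixed the count of genes detected, and values below are given for that probe unless another is named.

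**Figure D1:**
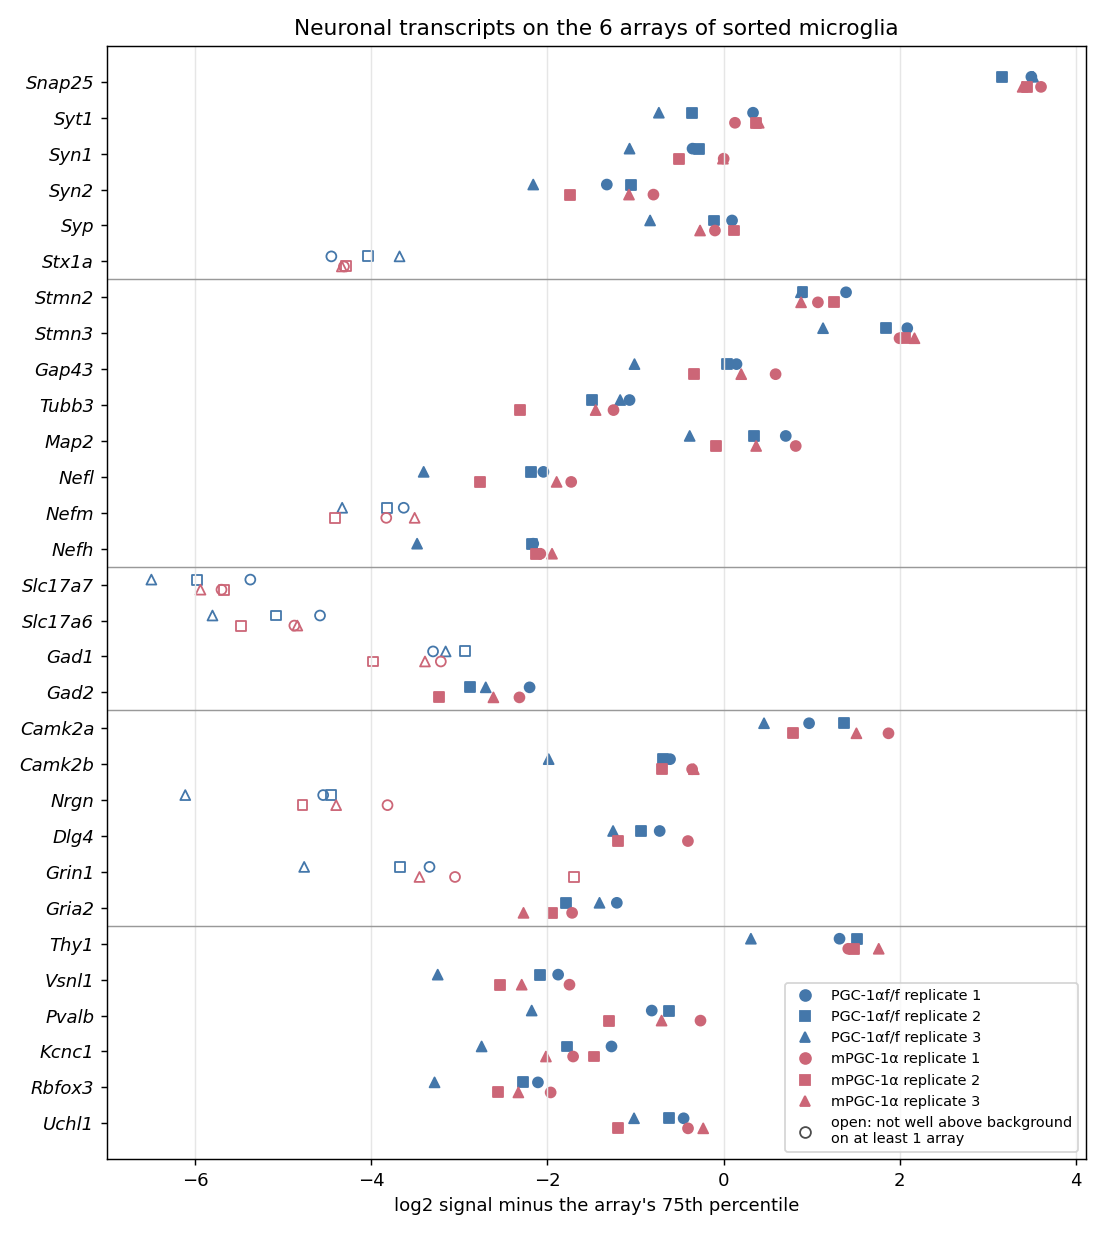
Signal of the 30 neuronal transcripts on each array, as log2 intensity minus the array's 75th percentile (x axis), 1 line per gene, grouped by role. Blue points are PGC-1αf/f and red points mPGC-1α, the marker shape gives the replicate, and open points mark the 7 genes that were above background on fewer than 6 arrays. PGC-1αf/f replicate 3 (blue triangles) is the lowest point of 17 of the 22 genes that were above background and had a value on every array.

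Values in the following are log2 intensities relative to the array's 75th percentile, given for replicates 1, 2 and 3 in turn, and differences are mPGC-1α minus PGC-1αf/f. None of the 24 genes that entered the test passed the threshold, which 0.0792% of all tested probes did. Adjusted p-values in limma ran from 0.294 to 0.978 and standard errors from 0.15 to 0.53. Of the 24, Grin1 included, 21 had the higher mean in mPGC-1α and 3 in PGC-1αf/f, but without PGC-1αf/f replicate 3 the split was 11 to 13.

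Among the presynaptic genes, 5 of 6 were above background throughout. Snap25, a SNARE protein of vesicle fusion, gave 3.50, 3.16 and 3.52 in PGC-1αf/f and 3.61, 3.44 and 3.40 in mPGC-1α. The groups overlapped, the controls ran over 0.36 and the mPGC-1α arrays over 0.21. The difference was 0.09 (95% interval -0.27 to 0.45), the narrowest interval of the tested genes, it was 0.15 without PGC-1αf/f replicate 3, and its sign turned under quantile normalization, a shift by the median, and normexp, a model-based background correction. Syt1, a calcium sensor of release, gave 0.34, -0.36 and -0.73 in PGC-1αf/f and 0.13, 0.37 and 0.40 in mPGC-1α. The mPGC-1α arrays lay close together and the control arrays ran over 1.07, with the difference at 0.55 (SE 0.27, limma adjusted p = 0.350) and at 0.31 without PGC-1αf/f replicate 3, the lowest array.

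Syn1 and Syn2 encode synapsins, which tether synaptic vesicles. Syn1 gave -0.35, -0.28 and -1.07 in PGC-1αf/f and 0.00, -0.51 and -0.01 in mPGC-1α. Syn2 gave -1.33, -1.05 and -2.16, and -0.80, -1.74 and -1.07. In both, PGC-1αf/f replicate 3 was the lowest array and mPGC-1α replicate 2 the next lowest, so the groups overlapped. Syp, which encodes the vesicle protein synaptophysin, gave 0.10, -0.10 and -0.83 in PGC-1αf/f and -0.10, 0.12 and -0.27 in mPGC-1α. Its difference of 0.20 became -0.08 without PGC-1αf/f replicate 3. Stx1a, a syntaxin of the release machinery, was above background only on PGC-1αf/f replicate 3 and was not tested.

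Of the 8 growth cone and cytoskeletal genes, 7 were above background on all arrays. Stmn2 and Stmn3 encode stathmins, which bind tubulin. Stmn2 gave 1.39, 0.90 and 0.88 in PGC-1αf/f and 1.07, 1.25 and 0.88 in mPGC-1α, a difference of 0.01 (95% interval -0.44 to 0.46) that was -0.08 without PGC-1αf/f replicate 3. Stmn3 gave 2.09, 1.84 and 1.13, and 2.00, 2.06 and 2.17, so that PGC-1αf/f replicate 3 was the low array. Its difference of 0.39 was 0.11 without that array. A second Stmn3 probe, also above background throughout, gave 0.48, with a deviation of -1.29 on the same array from the mean of the other controls.

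Gap43, a growth cone protein, gave 0.15, 0.04 and -1.01 in PGC-1αf/f and 0.59, -0.33 and 0.20 in mPGC-1α. Map2, a dendritic microtubule protein, gave 0.71, 0.35 and -0.38, and 0.82, -0.09 and 0.37. The lowest array was PGC-1αf/f replicate 3 in both, and the lowest mPGC-1α array was replicate 2. Tubb3, the neuronal β-tubulin, departed from this order: it gave -1.07, -1.49 and -1.17 in PGC-1αf/f and -1.25, -2.31 and -1.45 in mPGC-1α, with mPGC-1α replicate 2 lowest. Its difference was -0.43 (SE 0.29, limma adjusted p = 0.470), and -0.11 without mPGC-1α replicate 2 or -0.64 without mPGC-1α replicate 1.

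The neurofilament genes encode the light (Nefl), medium (Nefm) and heavy (Nefh) chains of the axonal intermediate filament. Nefl gave -2.05, -2.19 and -3.41 in PGC-1αf/f and -1.73, -2.77 and -1.90 in mPGC-1α. Nefh gave -2.16, -2.17 and -3.48, and -2.08, -2.13 and -1.95. Nefh was the only one of the 23 tested genes with a value on every array whose groups did not overlap, by a margin far smaller than the drop on PGC-1αf/f replicate 3, and groups did not overlap in 25.2% of all tested probes. Its difference was 0.55 (SE 0.35, limma adjusted p = 0.447) and 0.11 without that array. At a second Nefh probe, where the same array deviated by -1.38 from the mean of the other controls, the groups overlapped. Nefm was not above background on any array at either of its 2 probes.

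Of the 4 genes of transmitter synthesis and loading, 1 was above background on all arrays, the fewest of any role. The vesicular glutamate transporters Slc17a7 and Slc17a6 were above background on no array. Gad2 and Gad1 encode the enzymes that make GABA. Gad2, which was that gene, gave -2.20, -2.87 and -2.70 in PGC-1αf/f and -2.32, -3.23 and -2.61 in mPGC-1α. The groups overlapped and the difference was -0.13 (95% interval -0.79 to 0.53). Gad1 was above background on 2 PGC-1αf/f arrays and 1 mPGC-1α array and was not tested.

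Among the postsynaptic genes, Camk2a and Camk2b encode subunits of a calcium- and calmodulin-dependent kinase enriched at excitatory synapses. Camk2a gave 0.97, 1.37 and 0.46 in PGC-1αf/f and 1.87, 0.79 and 1.51 in mPGC-1α. Camk2b gave -0.61, -0.69 and -1.99, and -0.36, -0.70 and -0.34. The Camk2b difference of 0.63 (SE 0.37, limma adjusted p = 0.411) was 0.18 without PGC-1αf/f replicate 3, the low array of both genes. Dlg4, which encodes the scaffold PSD-95, gave -0.72, -0.94 and -1.25 in PGC-1αf/f and -0.40 and -1.20 in mPGC-1α, where the value of replicate 3 was removed as an outlier spot, and the fit used the other 5 arrays. Nrgn, a calmodulin-binding protein of spines, was above background on no array.

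Both glutamate receptor genes are given in full. Grin1, the obligatory NMDA receptor subunit, gave -3.34, -3.67 and -4.76 in PGC-1αf/f and -3.05, -1.70 and -3.45 in mPGC-1α. Replicate 2 was the high array of the mPGC-1α group, and replicate 3 was below PGC-1αf/f replicate 1, so the groups overlapped. Grin1 entered the test only through the mPGC-1α arrays, and no control array was well above background, so no difference is given. The bound from the means of all 3 arrays, at least 1.90-fold higher in mPGC-1α, rests on replicate 2, and the difference did not pass the threshold (limma adjusted p = 0.317). The second Grin1 probe was above background on no array.

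Gria2, the AMPA receptor subunit that limits calcium entry, gave -1.21, -1.79 and -1.41 in PGC-1αf/f and -1.72, -1.94 and -2.27 in mPGC-1α. Its difference was -0.51 (SE 0.21, 95% interval -1.01 to -0.01), a 0.703-fold level. The limma adjusted p was 0.294 and the unadjusted limma p was 0.0469. No other tested member had an unadjusted p under the threshold of 0.05, which in the lower direction was found in 9.21% of all tested probes and in the higher direction in 7.53%. The groups overlapped, since mPGC-1α replicate 1 was above PGC-1αf/f replicate 2. With each of the 6 arrays left out in turn the difference ran from -0.67 to -0.36, and it was -0.48 without PGC-1αf/f replicate 3. The second Gria2 probe was above background on 1 array and was not tested.

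Promoter sequence was examined because many neuronal genes carry RE1, the element bound by REST, a repressor that keeps neuronal genes silent in other cells. RefSeq promoters on GRCm38.p6, 250 bases before each start, were found for 22 of the 30 genes (29 promoters). None was found here for Snap25, Stmn2, Gap43, Camk2a, Thy1, Nefh, Nefm and Nefl. The core of RE1 was searched on both strands as AGCACC, then any 2 bases, then GGACAG. A wider neuronal list, described below, had promoters for 45 of its 75 genes, and 0 of these 73 promoters held the core. Among the 29 promoters of the members the core occurred in 2, and among all 32851 in 17 (0.0517%). The 2 genes were Gad2, at bases 163 to 150 before the start, and Gria2, at bases 170 to 157 on the opposite strand. Both matches are shown with 8 flanking bases on each side, in the direction in which the core reads as spelled, with the core in capitals.

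Gria2 (chr3:80802984-80803013, plus strand, gene on the minus strand): tcgattttAGCACCGCGGACAGcgctttgg
Gad2 (chr2:22622156-22622185, plus strand): gctgtggtAGCACCCTGGACAGcgcgttcc

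Both genes were above background on all 6 arrays. The promoter of Grin1, the gene above background only in mPGC-1α, is shown for comparison. It held no core, only its right-hand part GGACAG on the opposite strand (capitals, bases 126 to 121 before the start). That part occurred in 34.5% of the members' promoters, in 16.4% of those of the wider list and in 22.2% of all. The left-hand part AGCACC occurred in 24.1%, 17.8% and 16.2%. A match in these windows is a description of the letters, and binding was not measured.

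Grin1 (chr2:25319188-25319437, minus strand): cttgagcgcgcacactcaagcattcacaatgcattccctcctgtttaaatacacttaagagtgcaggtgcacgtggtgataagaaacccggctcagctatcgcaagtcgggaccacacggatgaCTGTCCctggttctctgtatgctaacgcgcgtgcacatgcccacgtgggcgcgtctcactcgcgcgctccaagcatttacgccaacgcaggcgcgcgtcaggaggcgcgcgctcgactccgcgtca

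All 6 surface, channel and pan-neuronal genes were above background on every array. Thy1, a surface glycoprotein of neurons and T cells, gave 1.32, 1.52 and 0.31 in PGC-1αf/f and 1.42, 1.49 and 1.76 in mPGC-1α. The calcium-binding protein Pvalb, a marker of fast-spiking interneurons and Purkinje cells, gave -0.82, -0.62 and -2.18, and -0.26, -1.30 and -0.70. Kcnc1, a potassium channel of fast-spiking neurons, gave -1.27, -1.78 and -2.75, and -1.71, -1.47 and -2.02. PGC-1αf/f replicate 3 was the lowest of the 6 arrays for all 3. Their differences were 0.51, 0.45 and 0.20 (limma adjusted p = 0.438, 0.627 and 0.803), and 0.14, -0.04 and -0.21 without that array.

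Rbfox3, which encodes the neuronal nuclear protein NeuN, gave -2.11, -2.27 and -3.28 in PGC-1αf/f and -1.96, -2.56 and -2.33 in mPGC-1α. Vsnl1, a neuronal calcium sensor, gave -1.88, -2.08 and -3.25, and -1.75, -2.54 and -2.29. For both, PGC-1αf/f replicate 3 was lowest, and the differences of 0.27 and 0.21 became -0.09 and -0.22 without it. Uchl1, a neuronal ubiquitin hydrolase, gave -0.45, -0.62 and -1.02, and -0.40, -1.20 and -0.23, with mPGC-1α replicate 2 lowest. Its difference was 0.09 (95% interval -0.58 to 0.76), and -0.07 without PGC-1αf/f replicate 3.

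**Figure D2:**
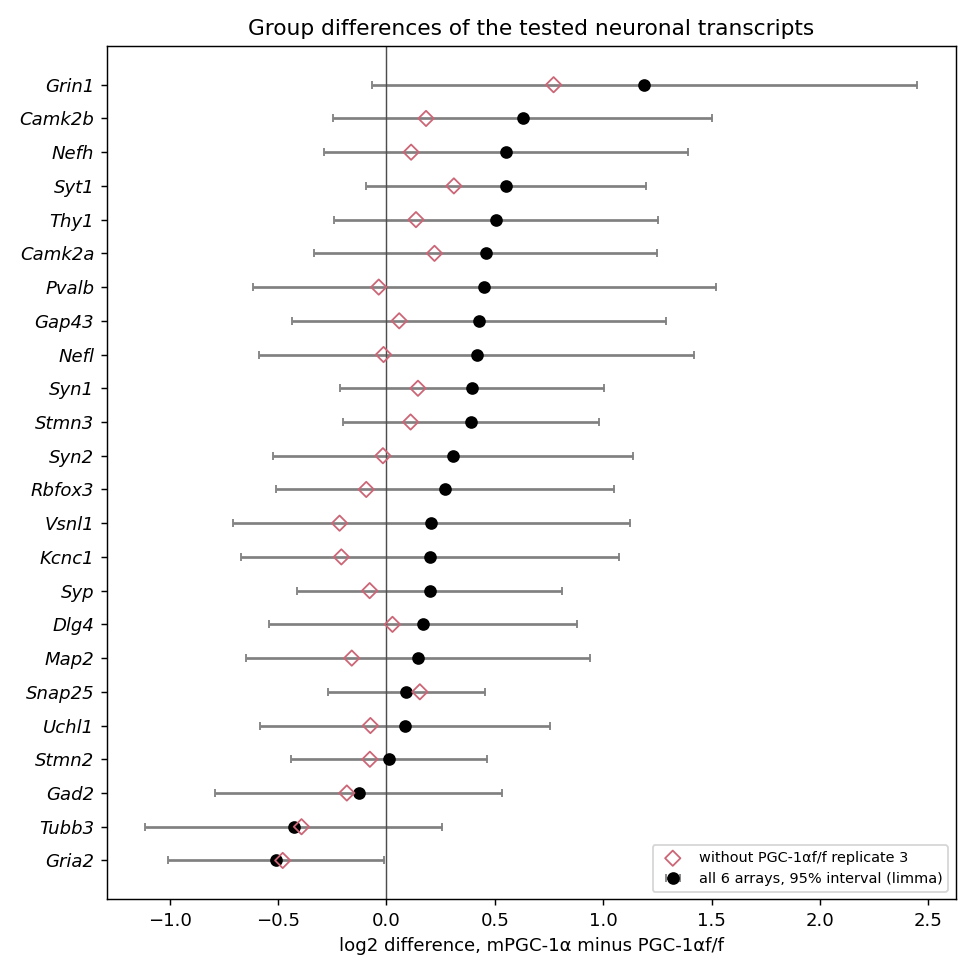
Log2 difference of the 24 tested neuronal transcripts, mPGC-1α minus PGC-1αf/f (x axis), sorted by size. Black points with bars are limma estimates over 6 arrays with 95% intervals, and red diamonds are differences without PGC-1αf/f replicate 3. The point of Grin1 is set against control values that were not above background. All intervals but that of Gria2 include 0, and most differences above 0 are lower without that array.

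Over the 23 genes above background on all arrays, 20 differences were above 0 and 3 below, with a median of 0.27, against a median of -0.0026 over all tested probes, 49.7% of them above 0. Without PGC-1αf/f replicate 3, 10 of the 23 were above 0 and the median was -0.02. With the 7 dimmer genes included, whose differences are partly between values at background, 25 of 30 were above 0 and the median was 0.20 (12 of 30 and -0.05 without that array). By role, and over genes above background throughout, the median difference was 0.31 for the 5 presynaptic genes (0.15 without that array). For the 7 of growth cone and cytoskeleton it was 0.39 (-0.01) and for the 4 postsynaptic genes 0.31 (0.11). For the 6 surface, channel and pan-neuronal genes it was 0.24 (-0.08). Gad2, the only such gene of transmitter synthesis and loading, had a difference of -0.13 (-0.18). In 23 of the 24 tested genes the range of the 3 control arrays was larger than the difference between the groups. The 95% interval held 0 for 23 genes and lay between a 2-fold lower and a 2-fold higher level for 8. It held the 2-fold higher level (a log2 difference of 1) for 14, Grin1 included, and the 2-fold lower level for 2.

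The spread within the control group had a pattern common to most of the set. PGC-1αf/f replicate 3 was the lowest of the 6 arrays for 17 of the 22 genes that were above background with a value on every array, compared with 28.6% of 21073 probes chosen in the same way. Of the 23 genes above background throughout, 20 were lower there than the mean of the other 2 controls, 9 of them by 1 or more on the log2 scale. The median of this deviation was -0.83, against -0.0015 over all probes. The deepest were Pvalb (-1.46), Camk2b (-1.34), Nefh (-1.31), Nefl (-1.29), Vsnl1 (-1.27) and Kcnc1 (-1.22). Not every neuronal transcript took part at its brightest probe. Snap25 (0.19), Tubb3 (0.11) and Gria2 (0.09) were above the mean of the other controls on that array. Gad2 (-0.16) and Stmn2 (-0.27) were little below that mean. The other Snap25 probe was above background on no array, so the Snap25 value rests on 1 probe.

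A smaller deviation was seen on mPGC-1α replicate 2. There 18 of the 23 genes were below the mean of the other mPGC-1α arrays, with a median of -0.51 (all probes -0.01). Tubb3 (-0.96), Nefl (-0.96), Camk2a (-0.90), Uchl1 (-0.88) and Syn2 (-0.81) were among the lower ones. It was the lowest of all 6 arrays for 3 of 22 genes (Tubb3, Gad2 and Uchl1), and for 10.9% of all probes. Thus Tubb3 and Gad2 were low on this array and not on PGC-1αf/f replicate 3, while Nefl and Syn2 were low on both.

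**Figure D3:**
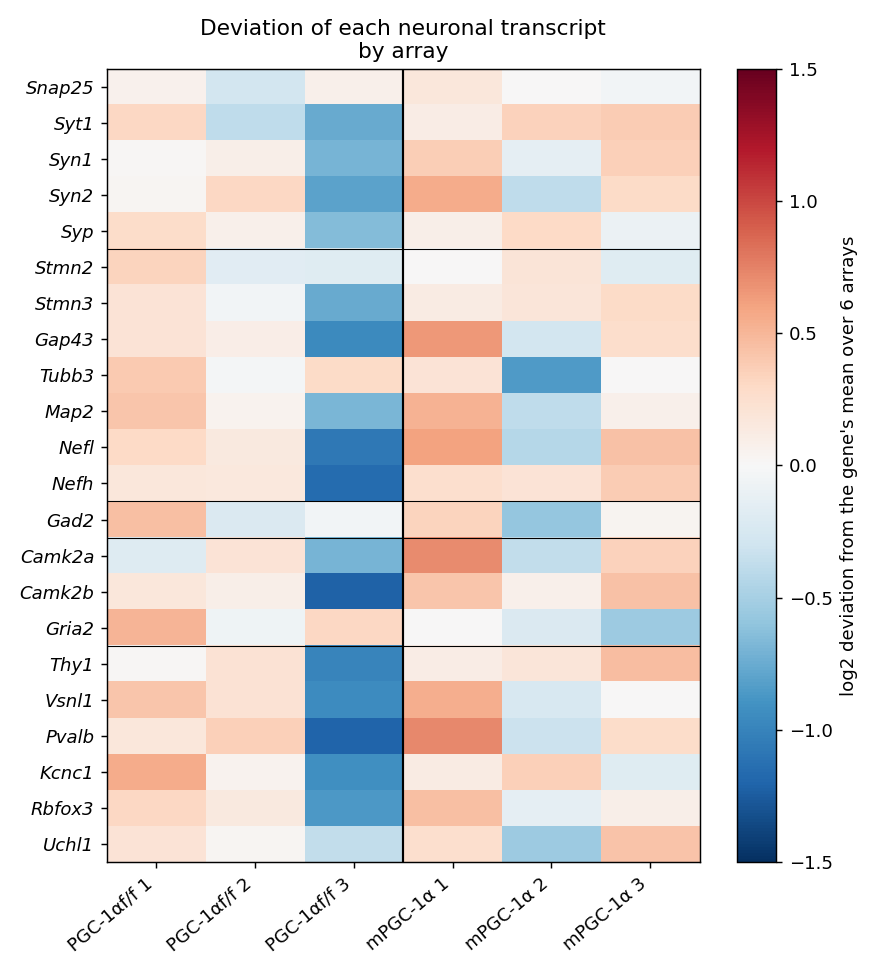
Deviation of each neuronal transcript on each array from its own mean over the 6 arrays (colour, log2 scale), for the 22 genes above background with a value on every array. Rows are grouped by role and the vertical line separates PGC-1αf/f from mPGC-1α. The column of PGC-1αf/f replicate 3 is blue for all genes but Snap25, Tubb3 and Gria2.

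A wider list of 75 neuronal genes, none of them among the 30, was read in the same way. Of these, 73 had a probe, 48 were above background on all arrays and 15 on none. Of 52 tested, 0 passed the threshold in limma (smallest adjusted p = 0.149), and 1 was higher and 5 were lower at an unadjusted p under 0.05, against 7.53% and 9.21% of all tested probes. Groups did not overlap for 2 genes in the higher direction (Rab3a and Prph) and 5 in the lower (Vamp1, Stmn4, Tubb2a, Tubb4a and Basp1), against 11.4% and 13.7% of all tested probes. Prph was above background on 1 of 3 controls and Tubb4a on 2 of 3 mPGC-1α arrays, so both entered the test only through the group in which they were higher. The median difference was 0.14, and -0.07 without PGC-1αf/f replicate 3.

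The highest differences among the genes of this list above background throughout were those of Meg3, a neuronal long non-coding RNA (0.75), Ppp1r1b, the striatal phosphoprotein DARPP-32 (0.71), and Dlgap1, a postsynaptic scaffold (0.59). Without PGC-1αf/f replicate 3 the last 2 of these were 0.29 and 0.18. Meg3 ran from 0.32 to 3.67 in the controls alone and its difference was -0.02 without PGC-1αf/f replicate 3. Among the lowest were Sv2a, a vesicle glycoprotein (-1.14), and Stmn4, a further stathmin (-0.59). Sv2a rested on 1 control array, PGC-1αf/f replicate 3, since the other spots were outliers. Stmn4 gave 0.51, 0.33 and 0.23 in PGC-1αf/f and -0.13, -0.35 and -0.20 in mPGC-1α. Its groups were separated with little spread within either, at a difference of -0.59 (SE 0.14, limma adjusted p = 0.154), and the value without PGC-1αf/f replicate 3 was -0.65.

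Markers of other cell types were read on the same arrays as mean deviations from each gene's own mean. On PGC-1αf/f replicate 3 the mean deviation was -0.65 for the neuronal set, -0.46 for the wider neuronal list, -1.07 for cerebellar, -0.91 for striatal, -0.79 for interneuron and -0.09 for forebrain excitatory neuron markers, -0.19 for astrocyte markers, -1.29 for endothelial and mural markers and -2.02 for blood leukocyte markers. This array was the lowest for 9 of 9 leukocyte, 6 of 6 endothelial and mural, 5 of 5 cerebellar and 5 of 5 interneuron markers that were above background with all values, for 2 of 3 striatal and 1 of 2 forebrain excitatory markers, and for 4 of 10 astrocyte markers. It was the lowest for 0 of 8 oligodendrocyte markers, whose mean deviation there was 0.55. Microglial markers ranged from -0.16 to 0.19 over all arrays. The interneuron marker Slc32a1 is also on the wider neuronal list. Whether cell composition has a part in the low neuronal values of this array was not tested.

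Between the groups, no oligodendrocyte marker and no leukocyte marker passed the threshold in limma. Of 10 oligodendrocyte markers tested, 6 were lower at an unadjusted limma p under 0.05, against 9.21% of all tested probes. Groups did not overlap for 7, all lower, against 13.7%. Mog and Opalin entered the test only through the controls. Of 9 leukocyte markers tested, 0 had an unadjusted p under 0.05 and 1 was higher without overlap, against 11.4% of all tested probes. The median difference was -0.66 for the 12 oligodendrocyte markers and -0.58 for the 8 of them above background on all 6 arrays. The median for the 12 was -0.55 without PGC-1αf/f replicate 3. For the 12 leukocyte markers it was 0.94, and 0.22 without that array. Their part in the neuronal values was not tested.

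On the other arrays the neuronal set ranged from -0.14 (mPGC-1α replicate 2) to 0.33 (mPGC-1α replicate 1). Astrocyte markers, of which 11 of 12 were above background throughout, were also highest on mPGC-1α replicate 1 (0.64). Of the neuronal subtypes, markers were above background on all arrays for 6 of 8 cerebellar, 5 of 8 interneuron, 3 of 8 striatal and 2 of 8 forebrain excitatory genes. Those on no array included Cbln3 (cerebellar), Vip (interneuron), Drd1, Drd2 and Rgs9 (striatal), and Neurod6, Nptx1, Slc30a3 and Lmo3 (forebrain excitatory). Markers of other cells on no array included Rgs5, Kcnj8 and Abcc9 (mural) and Cd79a and Ncr1 (lymphocytes).

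**Figure D4:**
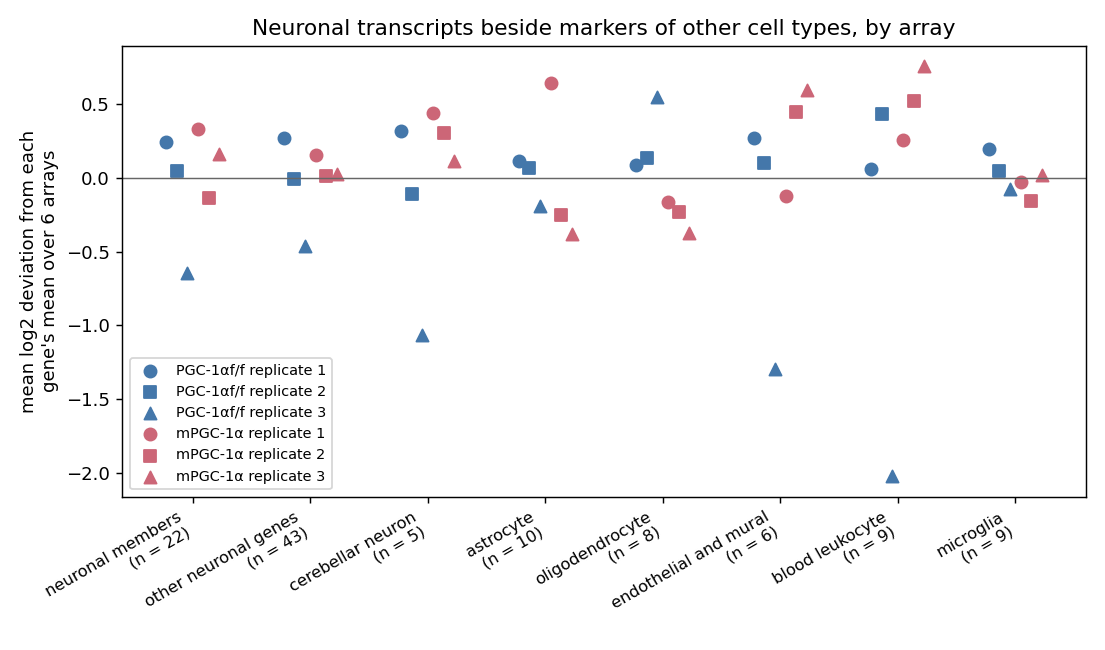
Mean log2 deviation of each marker list on each array (y axis) from the genes' own means over the 6 arrays, with the number of genes that were above background with a value on every array. Colour gives the group and marker shape the replicate. PGC-1αf/f replicate 3 (blue triangles) lies at -0.65 for the neuronal set and at -2.02 for blood leukocyte markers, and at 0.55 for oligodendrocyte markers.

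All 6 arrays lay on 1 slide, each group in a row of its own, so the row and the group cannot be told apart. Both groups were present in slide columns 1 and 2. Within column 1, 19 of the 30 genes were higher on the mPGC-1α array and the median difference was 0.10. Within column 2, 9 of 30 were higher and the median was -0.27. PGC-1αf/f replicate 3 was in neither of these columns, and the direction of the median was not the same in both.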

How the data were processed

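Total RNA of sorted microglia was amplified, labelled with Cy5 and hybridized to Agilent mouse expression arrays by the authors. The deposited scanner files (Feature Extraction 11.5.1.1) give each spot's background-subtracted, detrended intensity. The deposited value table holds the same intensity rounded to 3 significant digits. The study names GeneSpring for normalization, and those values were not used here.

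Log2 processed intensity was shifted by each array's 75th percentile, outlier spots were removed, and spots of a probe were averaged. Symbols came from RefSeq accessions. A gene was read at its probe with the highest mean. Probes well above background (at least 0.5 of their spots) on all arrays of a group were tested with limma 3.58.1 in R 4.3.3, without covariates, with Benjamini-Hochberg adjustment over all tested probes and a threshold of 0.05. The script was checked on simulated data.

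All 30 members were named. Of the wider list, the 3 highest and 3 lowest differences among genes above background throughout were to be named. Some genes that these rules or lists would name are not reported here. Vamp1, Tubb2a, Tubb4a, Basp1, Rab3a and Prph were named after their values were seen. The members and all lists were chosen with earlier results of these data known. Alternatives were other normalizations, background correction, filters, probe rules, blocks, array weights and leaving out each array.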

Additional observations from a re-analysis of the deposited data

How the results depend on the processing

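No neuronal member passed the threshold in limma under any alternative run. With the replicate number as a block, 0 probes passed overall and the members' median difference stayed at 0.20. Arrays of the same number were not treated as pairs, since their deviations correlated at 0.139, 0.127 and 0.0187. The count of members whose groups did not overlap, 1 as reported, was 0 with normexp correction and 0 with the mean over a gene's probes. With the deposited table, used without normalization between arrays, the count was 4. When each array was left out in turn it ran from 1 to 7. Groups separate more easily with fewer arrays, and the share over all tested probes is given only for the main run. These counts therefore do not say whether the members differ from other probes. Of the wider list, 1 gene passed with array weights, Stmn4 (limma adjusted p = 0.0399). With that setting 754 of all tested probes passed, against 20 in the main run. The median of the wider list was -0.089 with the slide column as a block. The members' median was 0.07 with a median shift (which moved the median of all probes to -0.14), 0.06 with array weights, -0.03 with the slide column as a block, and -0.05 to 0.47 when each array was left out.

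Single differences changed sign as follows, and the cause was not tested. Quantile normalization gave -0.021 for Snap25. A median shift gave -0.041 for Snap25, -0.12 for Stmn2 and -0.046 for Uchl1. Normexp correction gave -0.13 for Snap25, -0.053 for Stmn2 and -0.033 for Kcnc1. The deposited table, used without normalization between arrays, gave -0.024 for Stmn2. The slide column as a block gave -0.081 for Syn2, -0.16 for Map2, -0.13 for Nefl, -0.17 for Vsnl1, -0.061 for Pvalb, -0.066 for Kcnc1, -0.070 for Rbfox3, -0.26 for Uchl1 and -0.25 for Meg3. Array weights gave -0.19 for Syn2, -0.037 for Map2, 0.060 for Gad2, -0.026 for Camk2a, -0.14 for Vsnl1, -0.16 for Pvalb, -0.028 for Rbfox3 and -0.059 for Uchl1. Leaving out each array in turn gave -0.23 to 0.57 for Dlg4, -0.33 to 0.13 for Gad2, -0.21 to 0.53 for Kcnc1, -0.16 to 0.39 for Map2, -0.019 to 1.65 for Meg3, -0.013 to 0.73 for Nefl, -0.035 to 0.74 for Pvalb, -0.093 to 0.49 for Rbfox3, -0.024 to 0.15 for Snap25, -0.079 to 0.18 for Stmn2, -0.016 to 0.58 for Syn2, -0.077 to 0.39 for Syp, -0.10 to 0.38 for Uchl1 and -0.22 to 0.47 for Vsnl1. The direction of Gria2, Tubb3, Nefh, Camk2b, Syt1, Syn1, Stmn3, Gap43 and Thy1 was the same under all alternatives run. That of Grin1, the remaining tested member, did not change either, but it is set against control values that were not above background.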
